A study of Homo sapiens with 6 samples.

Results

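The tubulins described here are 10 genes for alpha-, beta- and gamma-tubulin: the alpha-tubulins TUBA1A, TUBA1B and TUBA1C, the beta-tubulins TUBB, TUBB2A, TUBB2B, TUBB3, TUBB4B and TUBB6, and the gamma-tubulin TUBG1. They were taken by gene symbol from a table of 60612 gene rows with 50229 distinct symbols, and each of the 10 symbols had 1 row. All 10 were among the 13748 genes that passed a filter of at least 0.5 FPKM (fragments scaled for gene length and library size) in at least 3 libraries. Poly(A) RNA was sequenced in paired-end libraries from cells labelled Hep3B, an established hepatocellular carcinoma line. In 3 libraries EIF4G2 had been silenced with siRNA at 50 nM (siEIF4G2), and 3 came from cells of the control group, which received the siRNA named NC, also at 50 nM (siNC). The library protocol speaks of an adipose type as the RNA source, unlike the other labels. EIF4G2, also known as DAP5, is a scaffold protein of translation initiation. No other treatment, time point or genotype is given in the labels.

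Microtubules are hollow filaments built from dimers of alpha- and beta-tubulin, and they form the mitotic spindle and the tracks for kinesin and dynein motors. Vertebrates carry several genes, or isotypes, for each subunit, which encode near-identical bodies and differ most in the acidic tail at the end of the protein. Gamma-tubulin does not build the filament wall but sits in ring-shaped complexes that start new microtubules, at the centrosome above all. Cells also hold the amount of tubulin messenger RNA in check. When free dimers accumulate, TTC5 binds the beginning of newly made alpha- and beta-tubulin chains on the ribosome, and with SCAPER and the CCR4-NOT complex it brings about decay of the messenger RNA being translated.

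The beginning of each coding sequence is shown because the autoregulation just described reads its product. The first 24 coding bases from the GENCODE release 29 transcripts on GRCh38 are given 5′ to 3′, with the first 12 in capitals. TUBA1A, TUBA1B and TUBA1C had the same 24 bases, so TUBA1B stands for all 3.
TUBA1B: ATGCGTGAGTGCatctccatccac
TUBB: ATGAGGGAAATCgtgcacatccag
TUBB4B: ATGAGGGAAATCgtgcacttgcag
TUBB2A: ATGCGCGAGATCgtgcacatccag
TUBB2B: ATGCGTGAGATCgtgcacatccag
TUBB3: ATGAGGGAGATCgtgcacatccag
TUBB6: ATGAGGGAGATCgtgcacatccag
TUBG1: ATGCCGAGGGAAatcatcacccta
TUBB3 and TUBB6 had the same 24 bases, and TUBB and TUBB4B the same first 12.

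Reads from stretches that these genes share cannot be assigned to 1 gene with certainty, so the members with high shares below have uncertain values. Coding sequences of the 3 alpha-tubulins were 95.9% to 97.2% identical in pairwise global alignments, those of the 6 beta-tubulins 81.0% to 98.1%, and alpha against beta 55.1% to 57.4%. The closest pair was TUBB2A and TUBB2B, which differed at 25 of 1338 aligned positions. Their last 45 coding bases, the part that encodes the isotype-specific tail, are shown with capitals where the aligned bases differ or face a gap.
TUBB2A: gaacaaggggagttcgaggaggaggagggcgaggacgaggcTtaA
TUBB2B: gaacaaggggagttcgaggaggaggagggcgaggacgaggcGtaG
Of all windows of 100 bases in the main transcript of each gene, 56.4% in TUBB2A, 46.2% in TUBB2B, 37.2% in TUBA1B, 18.3% in TUBA1A and 11.5% in TUBA1C occurred unchanged in a transcript of another annotated gene. The share was 5.1% in TUBB, 2.86% in TUBB4B and 0% in TUBB6. In TUBB3 it was 89%, all of it shared with the annotated readthrough gene AC092143.1, whose row ENSG00000198211 was listed at 0 in all 6 libraries. In TUBG1 it was 14.9%, all with TUBG2. How the deposited counts divided such reads is not given in the sources used here.

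Total counts lay between 63351653 and 72863628 per library. EIF4G2 measured 178, 180 and 199.8 CPM (counts scaled to library size with edgeR's TMM factors) across siEIF4G2 libraries 1 to 3, compared with 1103, 913 and 998 CPM across siNC libraries 1 to 3, so the silenced gene was low in every library labelled as silenced. Of 8 hepatocyte markers, 7 (GPC3, FGB, TTR, APOB, APOA1, AFP and ALB) were listed at 0 in every library, where 3 counts or 0.0412 to 0.0474 CPM is the upper limit that a count of 0 allows for counting error. The liver label was therefore not borne out by these markers. KRT8 and KRT18 of the epithelial list were abundant, but EPCAM, KRT19 and CDH1 were each at or under 0.881 CPM in every library. Summed levels of the 5 epithelial markers were 1980 to 2220 CPM in siEIF4G2 and 2270 to 2320 CPM in siNC, and those of the 6 fibroblast markers 622 to 659 CPM in siEIF4G2 and 533 to 560 CPM in siNC. The fibroblast markers did not move together: COL3A1 (352 CPM in siEIF4G2, 275 CPM in siNC), LUM and DCN rose, COL1A1 and PDGFRB fell, and COL1A2 was not tested. The 10 neuronal markers summed to 15.4 to 18.9 CPM in siEIF4G2 and 25.8 to 30.8 CPM in siNC, with NEFM, STMN2 and INA at 0; most of that sum was SNAP25, at 13.6 CPM in siEIF4G2 and 24.2 CPM in siNC. Of the 5 endothelial markers only CDH5 was tested, at 3.12 CPM in siEIF4G2 and 9.41 CPM in siNC; it made up most of their sum of 3.33 to 4.12 CPM in siEIF4G2 and 10.2 to 10.9 CPM in siNC, and PECAM1, VWF, KDR and TEK were each at or under 0.832 CPM in every library. The 5 leukocyte markers stayed at or under 0.342 CPM. The part of these genes in the tubulin results was not tested. In bulk RNA, fewer cells of a type and less RNA per cell cannot be told apart.

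Messenger RNA of the abundant alpha- and beta-tubulin members was higher in siEIF4G2 cells and that of the gamma-tubulin TUBG1 lower. TUBB, TUBA1B and TUBA1C were 1.38-fold, 1.31-fold and 1.41-fold higher in siEIF4G2, TUBB4B was 1.12-fold higher and TUBG1 1.27-fold lower. The other 5 members, the lowest of the 10 in FPKM, did not pass the test. With edgeR's quasi-likelihood test and Benjamini-Hochberg adjustment over all genes, 4 of 10 members rose, 1 fell and 5 did not pass an adjusted p of 0.05. TUBB4B and TUBG1 lay near that threshold (edgeR adjusted p = 0.0464 and 0.0456). Each lost its call in 5 of the 6 fits that left out 1 library. Over all 13748 tested genes, 33.4% were called, of which higher genes made up 15.9% and lower genes 17.6% of all tested. The median log2 fold change was 0.13 over the 10 members and 0.01 over all tested genes. The 5 called members had 3 siEIF4G2 values wholly on one side of the 3 siNC values, which held for 50.6% of all tested genes (25.0% higher and 25.6% lower). Whether replicates came from separate cultures is not stated in the labels, and the p-values measure the spread between these libraries alone, which may be technical. For a gene taken alone, an exact permutation test of 3 libraries against 3 cannot go below 0.1.

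**Figure D1:**
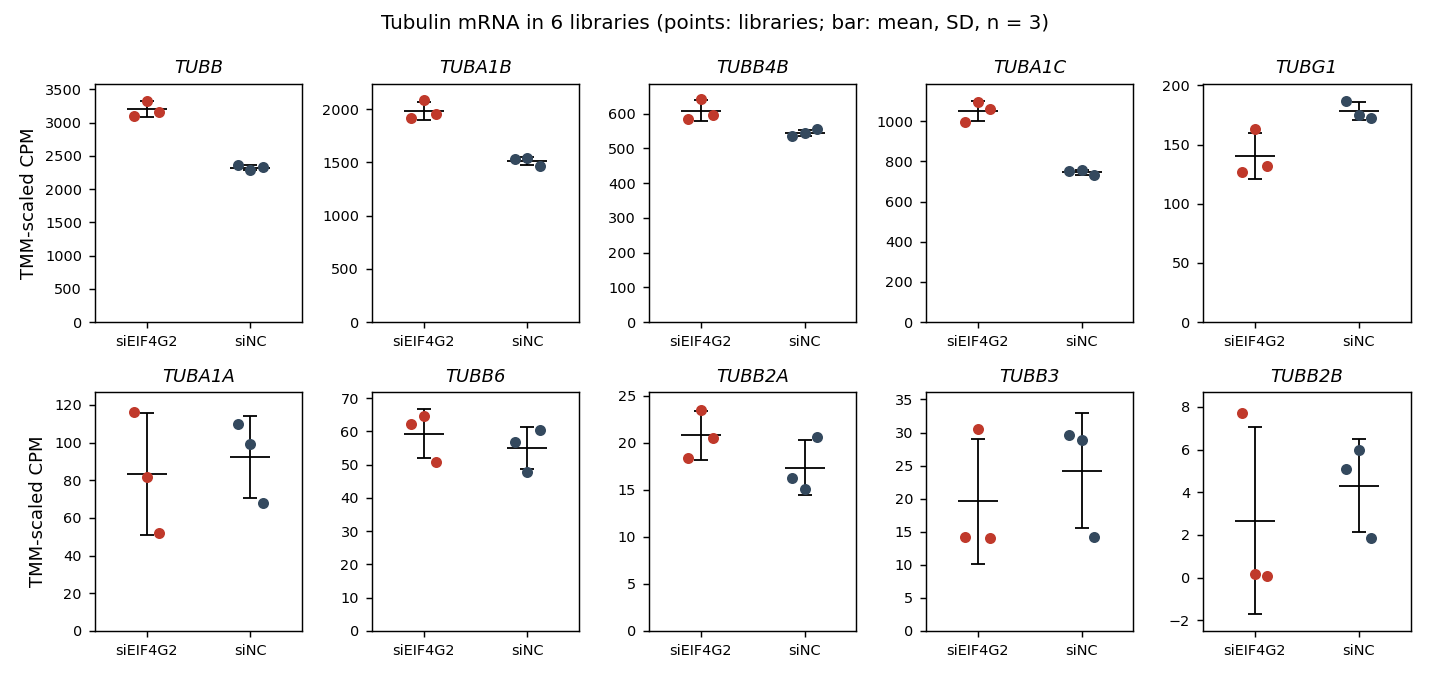
TMM-scaled CPM of the 10 tubulin genes in each library, ordered by mean FPKM, with points for libraries and bars for mean and SD (n = 3 per group). The y axis is linear and differs between panels. TUBB, TUBA1B, TUBA1C and TUBB4B lie higher in all 3 siEIF4G2 libraries than in all 3 siNC libraries, TUBG1 lies lower, and the other 5 overlap.

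TUBB encodes the beta-tubulin isotype of class I, found in most dividing cells, and it was the most abundant member by FPKM. The gene (ENSG00000196230) lies on chromosome 6 from 30720352 to 30725426, plus strand, in the deposited coordinates, which match GRCh38. An antisense gene, AL662797, overlaps its exons, with 538 bases in the longest overlap between single exons, and had at most 377 counts in a library. TUBB had 3101, 3332 and 3166 CPM across siEIF4G2 libraries 1 to 3, compared with 2361, 2288 and 2326 CPM across siNC libraries 1 to 3. The lowest siEIF4G2 library thus stood well above the highest siNC library. Means were 3200.0 ± 119 CPM in siEIF4G2 and 2325 ± 36.6 CPM in siNC (SD, n = 3 each), a log2 fold change of 0.46 with SE 0.04, at an edgeR adjusted p of 0.000854. The rise kept its call on leaving out any of the 6 libraries in turn, with log2 fold changes of 0.43 to 0.49.

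TUBB4B, a beta-tubulin of class IV that is expressed in many tissues and in ciliated cells, moved less. The gene (ENSG00000188229) lies on chromosome 9 from 137241287 to 137243707, plus strand. It had 584.5, 642 and 597 CPM across siEIF4G2 libraries 1 to 3, compared with 536, 544 and 555 CPM across siNC libraries 1 to 3. The groups did not overlap, but the lowest siEIF4G2 and the highest siNC value lay close together. The log2 fold change was 0.16 with SE 0.05, at an edgeR adjusted p of 0.0464. It lost its call without siEIF4G2 replicate 2 (edgeR adjusted p = 0.0717) or 3 (0.0798), without siNC replicate 1 (0.132), 2 (0.119) or 3 (0.0792), and with no filter on low values (0.0899).

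TUBA1B, the alpha-tubulin that proliferating cells express most widely, was the most abundant alpha member by FPKM. The gene (ENSG00000123416) lies on chromosome 12 from 49127782 to 49131395, minus strand. It had 1921, 2082 and 1956 CPM across siEIF4G2 libraries 1 to 3, compared with 1532, 1540.0 and 1467 CPM across siNC libraries 1 to 3. All siEIF4G2 libraries were again above all siNC libraries, with a log2 fold change of 0.39 with SE 0.05, at an edgeR adjusted p of 0.00199. The opposite strand of the same locus carries AC011603 (ENSG00000258017), annotated as antisense, whose interval from 49127782 to 49188484 takes in all of TUBA1B and part of TUBA1A. It averaged 377 ± 23.2 CPM in siEIF4G2, against 251 ± 46.4 CPM in siNC (log2 fold change 0.59 with SE 0.13, at an edgeR adjusted p of 0.0185). Whether counting used strand is not stated, so reads of TUBA1B and of this antisense gene cannot be told apart where their exons overlap. The call of AC011603 was lost without siEIF4G2 replicate 2 (0.0535) or siNC replicate 1 (0.0629), while that of TUBA1B held without any of the 6 libraries (log2 fold change 0.36 to 0.42).

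TUBA1C, a close relative of TUBA1B, rose by a like amount. The gene (ENSG00000167553) lies on chromosome 12 from 49188736 to 49274600, plus strand. It had 994, 1095 and 1062 CPM across siEIF4G2 libraries 1 to 3, compared with 751, 755.5 and 733 CPM across siNC libraries 1 to 3. The siNC libraries lay within a narrow band and every siEIF4G2 library was above it. The log2 fold change was 0.49 with SE 0.05, at an edgeR adjusted p of 0.001, and 0.46 to 0.54 on leaving out a library, with the call held each time.

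TUBG1 encodes the main gamma-tubulin of human cells and went the other way. The gene (ENSG00000131462) lies on chromosome 17 from 42609683 to 42615238, plus strand. It had 127, 163 and 132 CPM across siEIF4G2 libraries 1 to 3, compared with 187, 175 and 172 CPM across siNC libraries 1 to 3. The groups did not overlap, and siEIF4G2 replicate 2 was nearest to the siNC libraries. Means were 140.4 ± 19.6 CPM in siEIF4G2 and 178 ± 7.72 CPM in siNC (SD, n = 3 each), a log2 fold change of -0.34 with SE 0.10, at an edgeR adjusted p of 0.0456. The call was lost without siEIF4G2 replicate 1 (edgeR adjusted p = 0.118) or 3 (0.124), without siNC replicate 1 (0.125), 2 (0.0967) or 3 (0.0863), and with no filter on low values (0.0851). Without siEIF4G2 replicate 2 the adjusted p was 0.0057. TUBG2, the second gamma-tubulin gene and no member, shares windows with TUBG1 and fell as well. It had 17.8, 20.02 and 18.2 CPM across siEIF4G2 libraries 1 to 3, compared with 30.5, 31.3 and 27.8 CPM across siNC libraries 1 to 3 (log2 fold change -0.68 with SE 0.08, at an edgeR adjusted p of 0.00203).

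**Figure D2:**
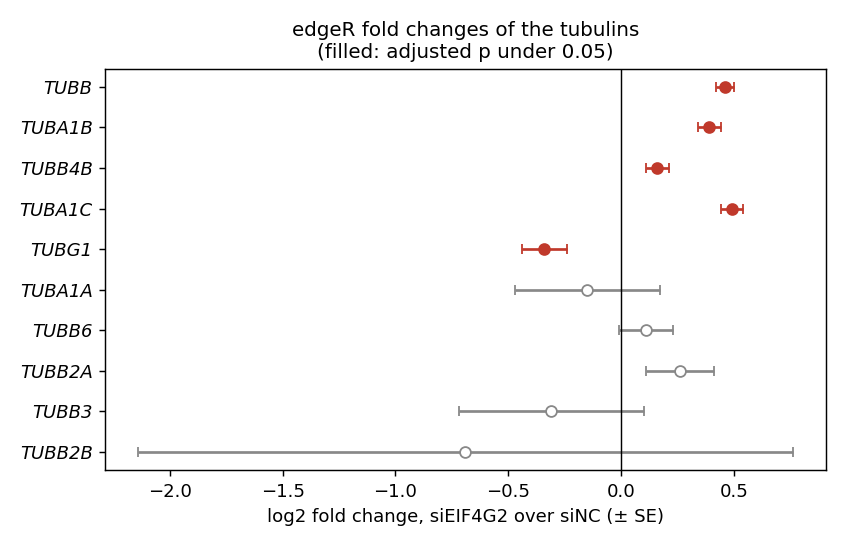
log2 fold change of siEIF4G2 over siNC with its standard error for the 10 tubulin genes, from edgeR on 3 libraries per group, ordered by mean FPKM from the top. Filled points passed an adjusted p of 0.05; the standard error lies between 0.04 in TUBB and 1.45 in TUBB2B at the bottom.

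In each of the 5 lowest members the groups overlapped. TUBB2A, a beta-tubulin of class II, lies on chromosome 6 from 3153666 to 3157544, minus strand (ENSG00000137267), and TUBB2B, its near copy known for its role in neuronal migration, on the same strand from 3224277 to 3231730 (ENSG00000137285). TUBB2B had 7.72, 0.167 and 0.0933 CPM across siEIF4G2 libraries 1 to 3, which are 575, 11 and 6 counts, compared with 5.09, 6.004 and 1.85 CPM across siNC libraries 1 to 3. The highest siEIF4G2 library exceeded the lowest 82.8-fold, and the groups overlapped. TUBB2A had 18.3, 23.5 and 20.5 CPM across siEIF4G2 libraries 1 to 3, compared with 16.3, 15.1 and 20.6 CPM across siNC libraries 1 to 3. Within siEIF4G2 it was lowest in replicate 1, where TUBB2B was highest, but both genes were lower in replicate 3 than in replicate 2. Within siNC the libraries ranked in opposite order for TUBB2A and TUBB2B. Added together, the pair had 26.1, 23.6 and 20.6 CPM across siEIF4G2 libraries 1 to 3. In siNC libraries 1 to 3 the sum was 21.4, 21.1 and 22.5 CPM. Within siEIF4G2 the sum was highest in replicate 1, where TUBB2B was highest too. Neither gene passed the test, at 0.26 with SE 0.15 for TUBB2A (edgeR adjusted p = 0.232) and -0.69 with SE 1.45 for TUBB2B (edgeR adjusted p = 0.75) on the log2 scale. Without siEIF4G2 replicate 1 alone, TUBB2B would have been called lower, at a log2 fold change of -5.02 (edgeR adjusted p = 0.0108). The TUBB2B interval also overlaps PSMG4 on the other strand, with 174 bases in the longest overlap between single exons.

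TUBB3, the class III beta-tubulin used as a marker of neurons and raised in some carcinomas, lies on chromosome 16 from 89921392 to 89938761, plus strand (ENSG00000258947). It had 14.2, 30.5 and 14.1 CPM across siEIF4G2 libraries 1 to 3, compared with 29.6, 28.9 and 14.2 CPM across siNC libraries 1 to 3. In 3 of the 6 libraries it lay at 14.1 to 14.2 CPM and in the other 3 at 28.9 to 30.5 CPM, with both groups among each (log2 fold change -0.31 with SE 0.41, at an edgeR adjusted p of 0.611). TUBA1A, the alpha-tubulin of developing neurons, lies on chromosome 12 from 49184795 to 49189080, minus strand (ENSG00000167552), and its interval overlaps those of TUBA1C and AC011603. It had 116, 82.0 and 51.8 CPM across siEIF4G2 libraries 1 to 3, compared with 109.6, 99.3 and 67.8 CPM across siNC libraries 1 to 3. The highest and the lowest value both came from siEIF4G2 libraries (log2 fold change -0.15 with SE 0.32, at an edgeR adjusted p of 0.758). TUBB6, the class V beta-tubulin, lies on chromosome 18 from 12307669 to 12344320, plus strand (ENSG00000176014), where it overlaps exons of AFG3L2. It had 62.4, 64.7 and 50.9 CPM across siEIF4G2 libraries 1 to 3, compared with 56.8, 47.9 and 60.3 CPM across siNC libraries 1 to 3, again with overlap (log2 fold change 0.11 with SE 0.12, at an edgeR adjusted p of 0.542). For these 5 members a missed threshold does not show that they were level.

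**Figure D3:**
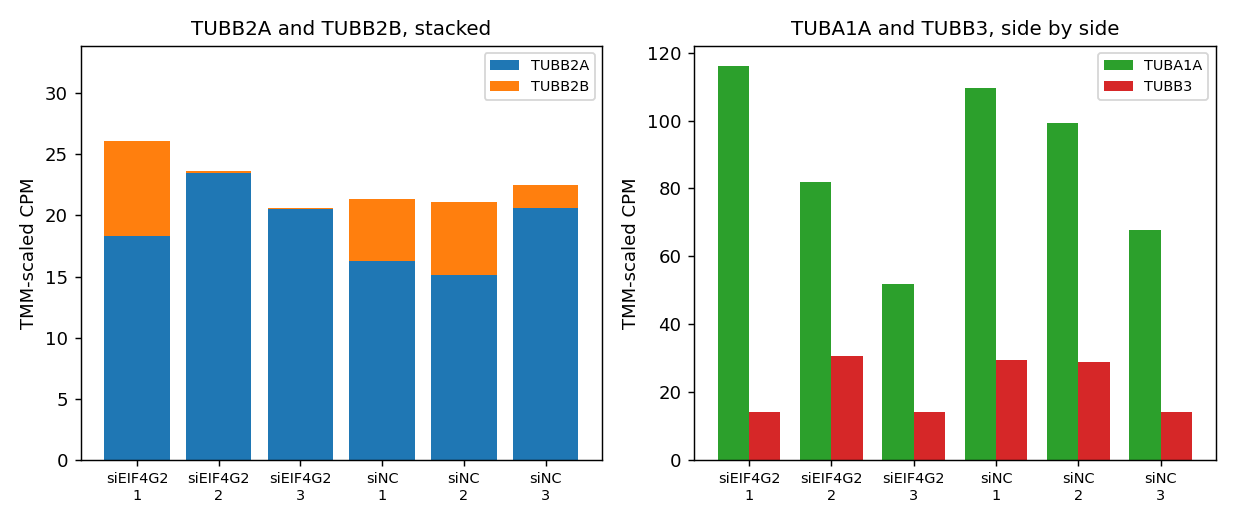
Left, TMM-scaled CPM of TUBB2A and TUBB2B stacked in each library; right, TUBA1A and TUBB3 side by side. TUBB2B is visible in siEIF4G2 replicate 1 and the siNC libraries and nearly absent from siEIF4G2 replicates 2 and 3, while the stacked height runs from 20.6 to 26.1 CPM.

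Per unit of gene length the cells used few isotypes. Mean FPKM over the 6 libraries was 722 for TUBB, 410.2 for TUBA1B, 237 for TUBB4B, 169 for TUBA1C, 55.2 for TUBG1, 23.1 for TUBA1A, 12.1 for TUBB6, 9.12 for TUBB2A, 4.11 for TUBB3 and 1.39 for TUBB2B. TUBB ranked 29th and TUBA1B 62nd of 50229 symbols. In that order every neighbour was separated from the next in all 3 libraries of both groups, except TUBB6 and TUBB2A, and TUBB3 and TUBB2B, which overlapped in siEIF4G2. The deposited FPKM values fitted a length close to all annotated exons of a gene, at 1.11 to 1.21 times that length for the 10 members. For TUBA1B those exons span 3574 bases, while its main transcript has 1627. For TUBB they span 3359 bases, against 2670 in its main transcript. Levels compared between genes, including the order of TUBB and TUBA1B, therefore depend on the length used.

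The 10 members together had 1862 ± 50.9 FPKM in siEIF4G2 and 1424 ± 14.1 FPKM in siNC (SD, n = 3 each), which is 0.63% of all FPKM in siEIF4G2 and 0.482% in siNC. The alpha members summed to 690.6 ± 15.8 FPKM in siEIF4G2 and 514 ± 16.0 FPKM in siNC, and the beta members to 1122 ± 29.2 FPKM in siEIF4G2 and 849 ± 8.66 FPKM in siNC. Summed alpha and summed beta were 1.34-fold and 1.32-fold higher in siEIF4G2, and the ratio of beta to alpha FPKM was 1.62 ± 0.00882 in siEIF4G2 and 1.65 ± 0.0651 in siNC, with overlapping libraries. These sums are descriptions and carry no test. The sums and the ratio depend on the length used for each gene. The alpha sum leaves out TUBA4A, an alpha-tubulin gene outside the 10.

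Within the beta members TUBB had the larger share in siEIF4G2 and TUBB4B the smaller. TUBB made up 75.1%, 74.7% and 75.5% of beta FPKM in siEIF4G2 libraries 1 to 3, against 71.3%, 70.6% and 70.5% in siNC libraries 1 to 3. TUBB4B made up 22.3%, 22.7% and 22.4% in siEIF4G2 libraries 1 to 3, against 25.5%, 26.4% and 26.5% in siNC libraries 1 to 3. Neither share overlapped between the groups. The other 4 beta isotypes held 1.49% or less each. Within the alpha members TUBA1B held 68.0 ± 0.464% in siEIF4G2 and 68.3 ± 0.484% in siNC, with overlap, while TUBA1C held 28.8 ± 0.866% in siEIF4G2 and 27.0 ± 0.492% in siNC, without overlap. For each 100 FPKM of beta-tubulin there were 4.08, 4.86 and 4.18 FPKM of TUBG1 in siEIF4G2 libraries 1 to 3, against 7.52, 7.20 and 6.95 FPKM in siNC libraries 1 to 3.

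**Figure D4:**
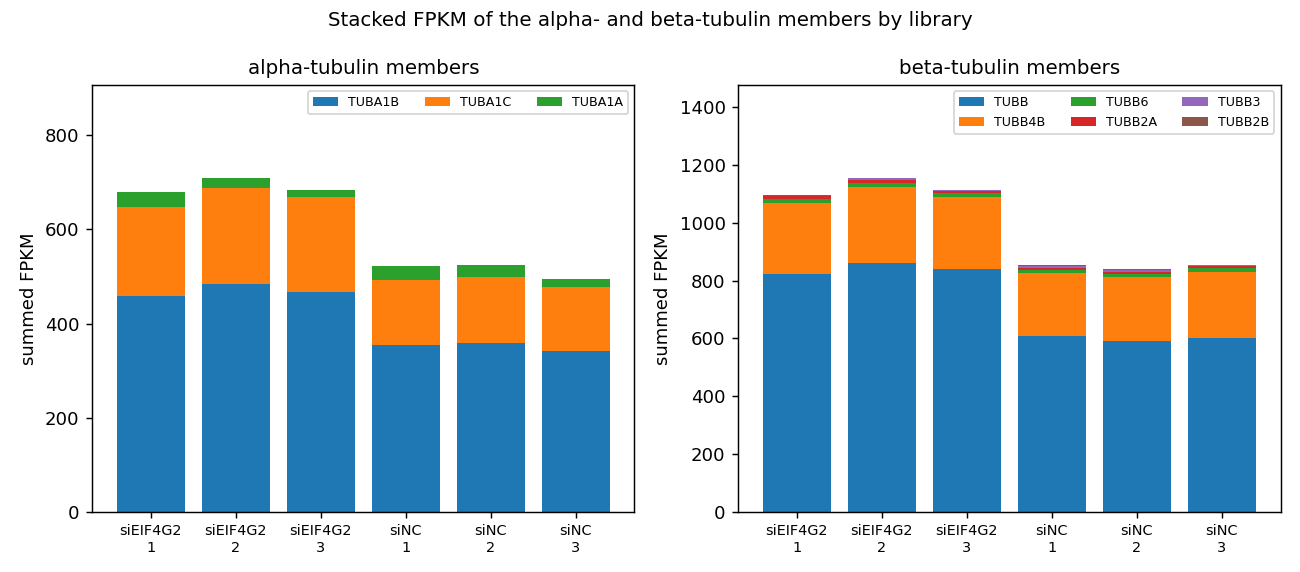
FPKM of the alpha-tubulin members (left) and the beta-tubulin members (right) stacked in each library, with siEIF4G2 libraries at the left. Summed alpha was 690.6 FPKM in siEIF4G2 and 514 FPKM in siNC, and summed beta 1122 FPKM in siEIF4G2 and 849 FPKM in siNC, with TUBB and TUBB4B or TUBA1B and TUBA1C making up most of each bar.

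The promoters of the 5 called members are shown because 4 of these genes rose together and TUBG1 did not. For all 10 members RefSeq promoters of GRCh38.p14 were matched by symbol. The 250 bases before the annotated start are given 5′ to 3′, and capitals mark CCAAT or its reverse complement ATTGG, the core of the box bound by NF-Y. TUBB is shown at the first of its 2 annotated starts and TUBA1C at the third of its 3.
TUBB, chr6:30720102-30720351, plus strand: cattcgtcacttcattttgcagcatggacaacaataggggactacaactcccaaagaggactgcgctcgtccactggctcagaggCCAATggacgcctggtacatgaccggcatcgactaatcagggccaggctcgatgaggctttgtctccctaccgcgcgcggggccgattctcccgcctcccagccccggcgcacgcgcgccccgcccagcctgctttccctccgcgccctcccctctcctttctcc
TUBA1B, chr12:49131396-49131645, minus strand: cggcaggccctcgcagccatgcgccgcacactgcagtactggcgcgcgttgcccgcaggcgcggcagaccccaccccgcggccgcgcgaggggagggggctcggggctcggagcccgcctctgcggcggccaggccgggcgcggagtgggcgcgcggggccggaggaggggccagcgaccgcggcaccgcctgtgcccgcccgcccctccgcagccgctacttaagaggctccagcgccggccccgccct
TUBA1C, chr12:49264832-49265081, plus strand: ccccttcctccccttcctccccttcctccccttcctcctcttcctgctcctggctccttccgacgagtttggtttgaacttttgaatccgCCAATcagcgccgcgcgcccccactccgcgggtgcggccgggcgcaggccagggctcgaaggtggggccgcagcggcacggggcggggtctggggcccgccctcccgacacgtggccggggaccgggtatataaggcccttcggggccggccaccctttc
TUBB4B, chr9:137241037-137241286, plus strand: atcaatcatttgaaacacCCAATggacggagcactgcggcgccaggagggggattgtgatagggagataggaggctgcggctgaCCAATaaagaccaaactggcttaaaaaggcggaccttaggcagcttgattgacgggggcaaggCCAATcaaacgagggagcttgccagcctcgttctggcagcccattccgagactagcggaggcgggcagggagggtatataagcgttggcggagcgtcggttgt
TUBG1, chr17:42609433-42609682, plus strand: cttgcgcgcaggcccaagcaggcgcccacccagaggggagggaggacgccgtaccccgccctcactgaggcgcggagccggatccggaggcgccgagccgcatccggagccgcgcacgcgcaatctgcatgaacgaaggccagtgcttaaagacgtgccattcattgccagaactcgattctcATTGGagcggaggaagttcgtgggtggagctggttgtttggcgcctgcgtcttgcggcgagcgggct
TUBB4B held 3 such boxes, and TUBB, TUBA1C and TUBG1 held 1 each. TUBA1B held none in this window, and the second annotated start of TUBB, not shown, held none either. The GC box GGGCGG, counted on both strands, occurred 3 times in the TUBA1B window, 2 times in that of TUBA1C, 1 time each in those of TUBB and TUBG1, 5 times at the second TUBB start and 0 times in TUBB4B. At the first annotated start 6 of 10 members held CCAAT on either strand, against 32.0% of 35116 promoter windows of the same length, and 5 of 10 held GGGCGG, against 42.6%. The first start of TUBA1C, not shown, held CCAAT 1 time and GGGCGG 0 times. Counting any annotated start of a member, 8 of 10 held CCAAT and 8 of 10 held GGGCGG. The percentages are for single windows and have no like value for any start. TTTGAA, the core of the cell cycle homology region, occurred on either strand in 2 of 10 members, TUBA1C and TUBB4B, against 13.3% of windows, and TATAAA in 1 of 10, TUBB2A, against 10.7%. These matches describe letters in a window and say nothing of a factor's binding.

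Genes that follow alpha- and beta-tubulin most closely across the 6 libraries were sought among 3162 other tested genes with a mean of at least 10 FPKM. Symbols formed like clone, locus or pseudogene names were left out. This name filter also dropped some coding genes, such as TCP1 and VBP1, so nearer genes may exist. Likeness was the mean absolute difference of log2 CPM after each gene was centred on its own mean. With 2 groups this measure favours genes with a like group difference. The genes named below had log2 fold changes of 0.38 to 0.49. Shared regulation with the tubulins was not tested. Nearest to TUBA1B were H2AZ1, a histone variant of H2A (0.012 log2 units), COLGALT1, a collagen galactosyltransferase (0.016), and UQCRC2, a subunit of respiratory complex III (0.022). Nearest to TUBB were TOMM20, a receptor of mitochondrial protein import (0.013), EI24, an endoplasmic reticulum protein (0.020), and SMYD5, a methyltransferase of the SET and MYND family (0.021). H2AZ1 had 386, 419 and 396 CPM across siEIF4G2 libraries 1 to 3, compared with 302, 305.5 and 291 CPM across siNC libraries 1 to 3.

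Tubulin genes outside the 10 were few at this depth. Of 13 further tubulin genes 4 were tested, of which 1 rose, 2 fell and 1 did not pass, at a median log2 fold change of -0.18. Those shares were 25.0% higher and 50.0% lower, against 15.9% and 17.6% of all tested genes. TUBE1, epsilon-tubulin of centrioles, was 1.32-fold higher in siEIF4G2 (edgeR adjusted p = 0.0194), TUBA4A, an alpha-tubulin abundant in platelets and muscle, 1.23-fold lower (edgeR adjusted p = 0.0225) and TUBG2 is given above. TUBD1, delta-tubulin, averaged 14.2 ± 0.336 CPM in siEIF4G2, against 14.8 ± 0.633 CPM in siNC libraries (edgeR adjusted p = 0.609). The 9 that were not tested averaged at most 1.41 CPM in siEIF4G2 and 1.56 CPM in siNC, TUBB4A being the highest. Of 40 rows with the name of a tubulin pseudogene 4 were tested, and both that were called share windows with members and rose with them. TUBAP2 was 1.89-fold higher (edgeR adjusted p = 0.00367) and TUBBP1 1.46-fold higher (edgeR adjusted p = 0.00519). TUBA4A lost its call when replicate 1 or 3 of either group was left out (edgeR adjusted p = 0.0566 to 0.0698) and TUBE1 without siEIF4G2 replicate 3 or siNC replicate 1 or 3 (0.0553 to 0.0631).

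New tubulin chains are handed by prefoldin to the chaperonin TRiC, also called CCT, which folds them, and dedicated cofactors then assemble the dimer. Of 14 tested genes of chaperonin and prefoldin, 5 rose, 1 fell and 8 did not pass. That is 35.7% higher and 7.14% lower, against 15.9% and 17.6% of all tested genes. CCT5 averaged 1317 ± 46.3 CPM in siEIF4G2, against 953 ± 40.5 CPM in siNC (log2 fold change 0.47 with SE 0.05, at an edgeR adjusted p of 0.00138). CCT6A was 1.34-fold and CCT3 1.21-fold higher (edgeR adjusted p = 0.00312 and 0.00917), and VBP1, a prefoldin subunit, 1.17-fold higher (edgeR adjusted p = 0.0194). CCT2 also rose, and TCP1, the first subunit of the ring, fell, so the subunits of TRiC did not all go one way. Of 8 tested cofactors of dimer assembly 0 rose, 1 fell and 7 did not pass, which is 0% higher and 12.5% lower in a short list. At an unadjusted edgeR p under 0.05 or by DESeq2 or limma, 0 of these cofactors were higher. The one that fell was ARL2, a small GTPase that works with the cofactors, 1.24-fold lower (edgeR adjusted p = 0.00467). The median log2 fold change was 0.12 over chaperonin and prefoldin genes and -0.18 over the cofactors. VBP1 lost its call without siEIF4G2 replicate 3 or siNC replicate 1 or 3, TCP1 without replicate 2 or 3 of siEIF4G2 or replicate 1 or 2 of siNC, and CCT2 without any 1 of the 6 libraries (edgeR adjusted p = 0.052 to 0.111).

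No tested partner of gamma-tubulin passed the test as lower. Of 12 tested genes of the gamma-tubulin complexes and their anchors, 3 rose, 0 fell and 9 did not pass. Of 8 subunits of augmin, which places the complex on existing microtubules, 2 rose, 0 fell and 6 did not pass. In either list 25.0% were higher and 0% lower, against 15.9% and 17.6% of all tested genes. In lists this short a count of 0 lower says little. Lower at an unadjusted edgeR p under 0.05 were 1 of the 12 and 0 of the 8, and DESeq2 and limma called 0 of either lower. Their medians were 0.08 and 0.19 on the log2 scale. TUBGCP3, a core subunit of the ring, averaged 79.9 ± 1.92 CPM in siEIF4G2, against 59.8 ± 1.87 CPM in siNC (log2 fold change 0.42 with SE 0.05, at an edgeR adjusted p of 0.00183). TUBGCP4 was 1.15-fold higher and MZT1, a small subunit that binds the ring proteins, 1.40-fold higher (edgeR adjusted p = 0.0185 and 0.0207). HAUS4 was 1.58-fold higher (edgeR adjusted p = 0.00447) and HAUS1 1.16-fold higher (edgeR adjusted p = 0.0467). TUBGCP4 lost its call without replicate 1 or 3 of siEIF4G2 or replicate 1 or 2 of siNC, MZT1 without any 1 siEIF4G2 library, and HAUS1 without any 1 of the 6 libraries (edgeR adjusted p = 0.0508 to 0.121).

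Of 4 tested genes of tubulin autoregulation 1 rose and 3 did not pass (median log2 fold change 0.06). That is 25.0% higher, against 15.9% of all tested genes. TTC5 averaged 19.4 ± 1.19 CPM in siEIF4G2, against 13.4 ± 2.35 CPM in siNC (log2 fold change 0.53 with SE 0.14, at an edgeR adjusted p of 0.0323), and lost its call without any siEIF4G2 library in turn or without siNC replicate 2 (edgeR adjusted p = 0.0524 to 0.0894). SCAPER, CNOT11 and CNOT1 differed by 0.05, 0.01 and 0.07 on the log2 scale, with edgeR adjusted p of 0.739, 0.892 and 0.446. Messenger RNA levels do not show how much tubulin protein was present or how much was free.

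Of 14 tested enzymes that modify tubulin, on the tail or on the body of the protein, 3 rose, 2 fell and 9 did not pass (median log2 fold change 0.05). These shares, 21.4% higher and 14.3% lower, lay near the 15.9% and 17.6% of all tested genes. The count of those lower was 5 with DESeq2 and 0 with a filter of at least 1 FPKM in all 6 libraries. AGBL5, a carboxypeptidase that trims glutamate from tails, averaged 91.8 ± 4.01 CPM in siEIF4G2, against 60.0 ± 1.14 CPM in siNC (log2 fold change 0.61 with SE 0.05, at an edgeR adjusted p of 0.000667). TTLL12 and ATAT1, the acetyltransferase of alpha-tubulin, were 1.26-fold and 1.38-fold higher (edgeR adjusted p = 0.00658 and 0.00849). TTLL1, a glutamylase subunit, was 2.96-fold lower, at 1.21 ± 0.1005 CPM in siEIF4G2 and 3.58 ± 0.758 CPM in siNC libraries (edgeR adjusted p = 0.00264). Of 20 tested genes that bind or sever microtubules, 3 rose, 2 fell and 15 did not pass (median log2 fold change 0.09). Their shares of 15.0% higher and 10.0% lower did not exceed those of all tested genes. TPX2 and PRC1, which bundle and organise the spindle, were 1.36-fold and 1.41-fold higher (edgeR adjusted p = 0.000563 and 0.004), KATNA1, the severing subunit of katanin, 1.25-fold higher (edgeR adjusted p = 0.0183), and MAP1B, a microtubule-associated protein best known in neurons, 1.81-fold lower (edgeR adjusted p = 0.00235). TTLL7, a glutamylase, and CLASP1, which stabilises plus ends, were the others that fell; each kept its call without 1 library only (TTLL7 without siEIF4G2 replicate 3, CLASP1 without siEIF4G2 replicate 3) and otherwise had edgeR adjusted p of 0.0643 to 0.131. The call of KATNA1 was lost without siEIF4G2 replicate 1 or siNC replicate 2 or 3 (edgeR adjusted p = 0.0547 to 0.0575).

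Markers of proliferating cells were higher beside the tubulins. Of 10 tested, 9 rose and 0 fell, at a median log2 fold change of 0.61. AURKA did not pass (log2 fold change 0.12, edgeR adjusted p = 0.82). The list was chosen with earlier results of these data known, so its share is no independent comparison. Over all tested genes 15.9% were higher and 17.6% lower. Of the 10 markers, 0 were lower at an unadjusted edgeR p under 0.05 or by DESeq2 or limma. CCNB1, the mitotic cyclin B1, averaged 222 ± 3.30 CPM in siEIF4G2, against 145 ± 4.93 CPM in siNC libraries (edgeR adjusted p = 0.000442), CCNA2 was 1.62-fold, CDK1 1.57-fold and PCNA 1.33-fold higher (edgeR adjusted p = 0.00053, 0.00137 and 0.00179). Their part in the rise of TUBB, TUBA1B, TUBA1C and TUBB4B was not tested.

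**Figure D5:**
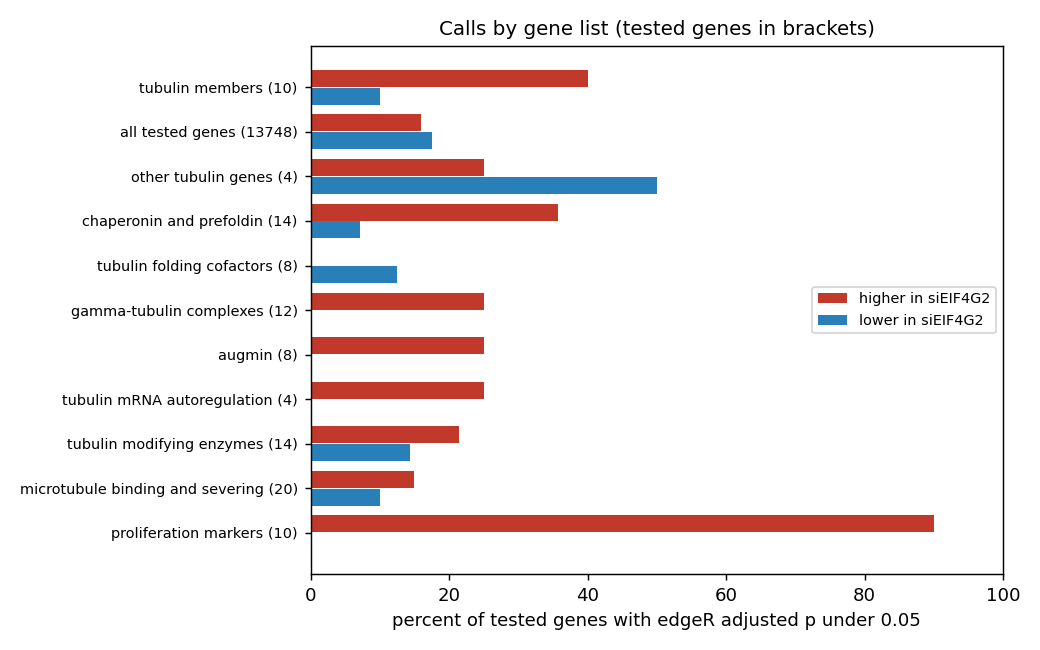
Percent of tested genes in each list that passed an edgeR adjusted p of 0.05 in each direction, with the number tested in brackets; the second row from the top gives all tested genes, at 15.9% higher and 17.6% lower. Of the 10 tubulins 40% were higher and 10% lower, and of the proliferation markers 90% were higher. The lists were chosen with earlier results of these data known.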

How the data were processed

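Poly(A) RNA of 6 libraries, 3 per group, was measured by paired-end sequencing, and sample titles gave groups and replicate numbers. HISAT2 2.0 and StringTie 1.3.0 are named in the submitters' processing notes, which assign them no role. Genome build, annotation and strand setting were not given in the sources used here. Of 58394 identifiers also in GENCODE release 29 (GRCh38), 99.9% had overlapping intervals. The authors deposited whole-number counts, treated here as rounded expected counts because StringTie is named, and, per the file headers, FPKM, listed at 0.0001 where the count was 0. From these, rows sharing a symbol were reduced to the one with the highest mean FPKM, a minimum of 0.5 FPKM in 3 or more libraries was required, and edgeR 4.0.16 (R 4.3.3) was run with TMM factors of 0.985 to 1.02 and a model of group only. Two-sided p-values were adjusted by Benjamini-Hochberg over every tested gene. Standard errors (SE) were derived from the log2 fold change and its quasi-likelihood F, as size over root F. DESeq2 1.42.0, limma 3.58.1 on log2(FPKM + 1), other pseudocounts, scalings and filters, a replicate block and leaving out each library were alternatives. Simulated counts with known changes were used to test the edgeR fit. Within groups the chi-square per gene between libraries was at least 69.1, so no library was a repeat of another. Variation between libraries beyond counting error, as the root of edgeR's common dispersion, was 19.4%, whatever its source. Members and lists were chosen with earlier results of these data known. Named genes are all 10 members, EIF4G2, up to 4 genes with the smallest p in each list, the 3 genes nearest to the most abundant alpha and beta member, overlapping genes, and genes looked up after their values were seen (CCT2, TCP1, TTLL7, CLASP1, TUBB4A, KRT8, KRT18, AURKA, single marker genes, TUBAP2, TUBBP1). The limit given for a count of 0 covers counting error alone.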

Additional observations from a re-analysis of the deposited data

How the results depend on the processing

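TUBB, TUBA1B and TUBA1C kept their direction and their call under all 16 alternatives. The count of members called higher was 3 to 4 and of members called lower 0 to 1 over the fits that left out 1 library, the 1 called lower without siEIF4G2 replicate 1 being TUBB2B and not TUBG1. With no filter on low values 0 members were called lower, and with the replicate block also 0, where TUBB4B and TUBG1 had adjusted p of 0.0725 and 0.0738; with the block 1726 genes were called higher and 2010 lower, against 2182 and 2415 without it. Deviations of libraries with the same replicate number correlated at 0.0011 to 0.0498, and those with unlike numbers at -0.0755 to 0.0433. Whether replicates of the same number belonged together cannot be decided from these values. TUBA1A had log2 fold changes of -0.46 to 0.10 on leaving out a library, the sign changing without siEIF4G2 replicate 3, with no call on either side; the cause was not tested. Over the 10 members, 143 of 159 values under alternatives kept direction and side of the threshold, 14 lost the call and 1 gained it. In TMM-scaled CPM in place of FPKM, which is not divided by length, TUBB made up 81.8% of beta in siEIF4G2 and 78.3% in siNC, TUBA1B 63.7% of alpha in siEIF4G2 and 64.3% in siNC, and the ratio of beta to alpha was 1.25 in siEIF4G2 and 1.26 in siNC; on that scale the TUBA1B shares no longer overlapped. Using library totals only gave 2422 genes higher and 2223 lower, against 2182 and 2415 with TMM. Over the other lists 237 of 288 counts stayed within 1.5 times. Counting error is largest for TUBB2B in siEIF4G2 replicates 2 and 3, with 11 and 6 counts; siEIF4G2 replicate 1, at a like total count, had 575. How far reads shared between near copies moved the values was not tested.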
